A study of Arabidopsis thaliana with 24 samples.

Results

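Early genes lowered by EXPA1 were taken here as 71 of the 33602 genes in the table, which stood low in EXPA1 OE shoots after 3 h of Dex and close to WT after 7 d of Dex and without Dex. They were chosen on measured values: a mean of at least 2 CPM (counts scaled so that each library sums to 1000000) in WT after 3 h of Dex, and a ratio of EXPA1 OE to WT that was about 3-fold or more down at 3 h, within about 1.5-fold at 7 d and within 2-fold without Dex. The ratios were taken on group means with 0.5 CPM added. The genotype ratios at 3 h, at 7 d and without Dex are therefore descriptions of the choice and carry no test here.

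EXPA1 encodes an α-expansin, a secreted protein that loosens the cell wall (CW). Secreted, vacuolar and membrane proteins share their route with expansins: their N-terminal hydrophobic signals lead them into the endoplasmic reticulum (ER), where chaperones such as BIP fold them, before they pass on to the CW, the plasma membrane or the vacuole. When folding falls behind, the unfolded protein response of plants raises the mRNAs of these chaperones. Aliphatic glucosinolates, made from methionine, are sulfur-containing defence compounds of Arabidopsis shoots, and sucrose is loaded into the phloem by a symporter that draws on the proton gradient of plasma membrane pumps.

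The genotypes compared shared the Col-0 background: EXPA1 OE, the single pRPS5A>GR>EXPA1 line 8-4, in which Dex (dexamethasone, a synthetic glucocorticoid) activates a GR fusion expressed from the RPS5A promoter and so the added EXPA1, and WT, which lacks this system. Both were grown on MS medium and shoots of 7-day-old seedlings were taken without Dex (control), after 3 h of Dex or after 7 d on Dex, with 4 biological replicates in each of the 6 groups. Whether the controls received the solvent of Dex, and at what hour each group was harvested, is not given in the sources used here, so an effect of 3 h of handling, solvent or hour cannot be told apart from that of Dex within a genotype. Results come from 1 transgenic line, and counts of the added and the endogenous EXPA1 are summed.

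EXPA1 itself was at 16878 to 19545 CPM in EXPA1 OE after 3 h of Dex and at 11474 to 15756 CPM after 7 d, against 326 to 423 CPM and 280 to 497 CPM in WT at those times and 379 to 470 CPM in uninduced EXPA1 OE. Library totals ran from 33618187 to 82187304 estimated counts. The 6 photosynthesis markers were at summed levels of 31106 to 49544 CPM in every library, as in green shoots. In EXPA1 OE replicate 2 at 3 h the 10 most abundant genes held 21.5% of the counts, against 9.19% to 12.9% in all other libraries; without this library the rule gave 63 genes, 61 of them among the 71, and of the 71 the same number were called lower in EXPA1 OE at 3 h against WT (71) and against its own control (56).

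Of the 16561 genes that reached 2 CPM in WT at 3 h, 165 (0.996%) passed the limit at 3 h. Of these, 85 were also low at 7 d, 8 were high at 7 d and 1 more was low without Dex, which left the 71. Their median log2 ratio was -1.80 at 3 h, -0.26 at 7 d and -0.09 without Dex, against a median of 0.03 over all expressed genes at 3 h. Inside the limit stood AT3G25190, a vacuolar iron transporter family gene, at a log2 ratio of -1.582, AT4G08555 at -1.584 and AT5G04885 at -1.595, and outside it TBL36 at -1.577, AT4G30460 at -1.569 and AT5G65760 at -1.567. Values so close to each other differ by less than the spread between libraries, so the edge of the set is arbitrary.

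The EXPA1 OE and WT libraries at 3 h did not overlap for any of the 71 genes. The rule all but fixes this separation, and the share over all expressed genes is not given. Nothing is therefore read from it, here or where single members are said not to overlap at 3 h. By edgeR's quasi-likelihood test (adjusted p under 0.05 and a fold of at least 2, fitted over all 20449 genes tested) 71 were called lower and 0 higher, where 4.89% and 4.51% of all genes tested were; since the rule used this contrast, nothing is read from that count. At 7 d 0 of 70 tested members were called lower and 0 higher between genotypes (1.65% and 2.22% of all genes tested), and without Dex 1 was called lower and 0 higher (2.94% and 0.214%), which the rule also limits. That gene, the uncharacterized AT4G08555, was at 0.380 to 0.466 CPM in uninduced EXPA1 OE and 0.718 to 1.03 CPM in WT.

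Sequences at the start of the coding region are shown for 6 of the members on which the results turn, because an N-terminal hydrophobic segment, which the rule did not use, was frequent among the members. Each run holds codons 1 to 35 read from the start codon, from the genome of TAIR10.1 (same nuclear sequence as TAIR10) with RefSeq coding models, and the 10 codons of the most hydrophobic window are in capitals. GER1 is a germin-like apoplastic protein, RNS2 a vacuolar S-like ribonuclease, AGP31 an arabinogalactan protein of the CW, SCPL26 a serine carboxypeptidase-like protein, AT1G78060 a glycosyl hydrolase and CYP79F1 a cytochrome P450 anchored in the ER membrane.
GER1 (chr1:27339824-27339928, minus strand): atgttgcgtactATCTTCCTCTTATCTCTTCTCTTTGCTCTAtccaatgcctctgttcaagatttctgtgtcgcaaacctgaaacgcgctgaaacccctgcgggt
RNS2 (chr2:16591256-16591360, plus strand): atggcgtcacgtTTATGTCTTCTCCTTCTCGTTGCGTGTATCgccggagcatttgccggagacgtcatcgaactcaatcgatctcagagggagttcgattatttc
AGP31 (chr1:9890739-9890843, minus strand): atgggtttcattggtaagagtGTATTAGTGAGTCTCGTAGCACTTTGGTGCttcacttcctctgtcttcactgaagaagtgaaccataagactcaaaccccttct
SCPL26 (chr2:15040000-15040104, minus strand): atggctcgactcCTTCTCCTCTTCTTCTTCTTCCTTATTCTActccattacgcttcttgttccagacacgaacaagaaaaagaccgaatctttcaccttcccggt
AT1G78060 (chr1:29352764-29352868, minus strand): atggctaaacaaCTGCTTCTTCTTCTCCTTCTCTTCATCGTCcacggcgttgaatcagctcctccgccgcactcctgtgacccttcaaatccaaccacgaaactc
CYP79F1 (chr1:5608862-5608966, plus strand): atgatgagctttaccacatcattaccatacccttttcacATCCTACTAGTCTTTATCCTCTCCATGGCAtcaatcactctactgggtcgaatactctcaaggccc

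The mean hydropathy of these windows (Kyte-Doolittle scale) was 3.01 in GER1, 3.45 in RNS2, 2.66 in AGP31, 3.47 in SCPL26, 3.81 in AT1G78060 and 3.03 in CYP79F1. Within the first 35 residues, a stretch of 10 averaging 2 or more on this scale was present in 40 of the 70 members with a protein model (57.1%), against 2919 of 16134 expressed genes with a protein model (18.1%). Hydrophobic windows of the length of a membrane span (19 residues after residue 35, mean of at least 1.6) were present in 30 members (42.9%) against 27.5% of expressed genes. Either feature was present in 54 members (77.1%) against 37.7%. At least 4 such windows, as in transporters, were found in 16 members (22.9%) against 6.57%. Hydropathy alone does not show a membrane span or entry into the ER. AT1G78060, annotated to the apoplast and CW, also had 1 window after residue 35. The N-terminal segment was not particular to genes that recovered. It was present in 57 of 92 genes (62.0%) that passed the limit at 3 h but were not members. Those genes were left out for their level at 7 d or without Dex. No test was run on these shares.

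**Figure D1:**
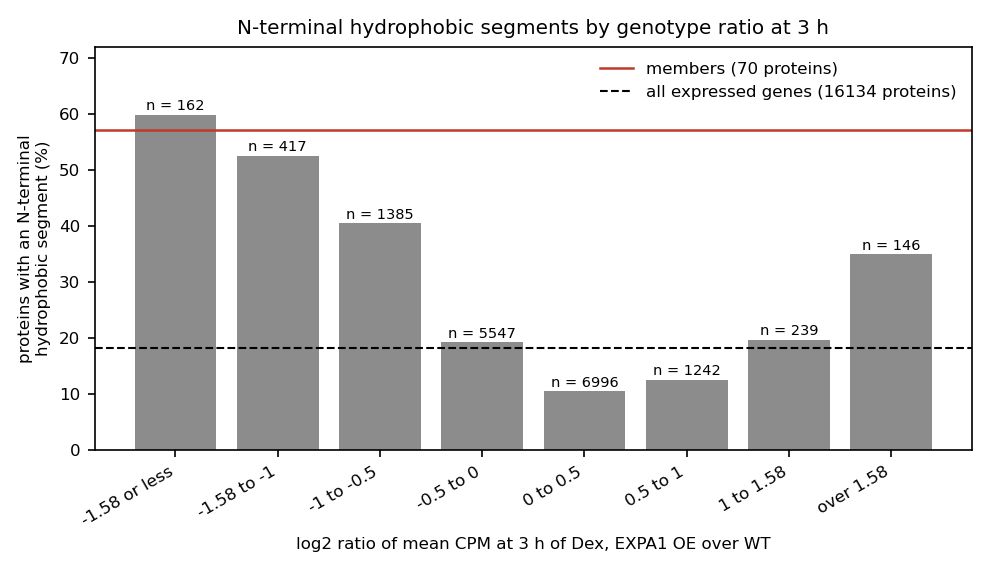
Share of proteins with an N-terminal hydrophobic segment (%, vertical axis) in bins of the log2 ratio of mean CPM, EXPA1 OE over WT, at 3 h of Dex (horizontal axis), for expressed genes; n is the number of proteins in a bin, the solid line the members and the dashed line all expressed genes. The share was 59.9% in the lowest bin, 10.4% in the bin of 0 to 0.5 and 34.9% in the highest bin.

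Over all expressed genes the share of N-terminal segments changed with the ratio at 3 h, as the plot by ratio shows. It was 59.9% of 162 genes at or past the 3-fold limit, 52.5% of 417 genes from there to -1 on the log2 scale, 40.4% of 1385 genes from -1 to -0.5 and 10.4% of 6996 genes from 0 to 0.5. It was higher again, at 34.9% of 146 genes, among those 3-fold or more up. Where an annotated location was given (52 members, 10090 expressed genes), the vacuole was named for 10 members (19.2%) against 4.17%, the apoplast for 6 (11.5%) against 1.41%, the plasma membrane for 12 (23.1%) against 15.7% and the nucleus for 1 (1.92%) against 9.44%. Median exon length was 1610 bases in the members and 1621 bases in expressed genes, and coding GC content 45.8% and 44.5%.

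The word lowered covers 2 kinds of change, which the rule does not separate. Of the 71 members, 55 were not called higher by 3 h of Dex in WT and were called lower by it in EXPA1 OE, so that they stood below their own uninduced level. A further 14 were called higher by 3 h of Dex in WT, and stood low in EXPA1 OE relative to that raised WT level. The last 2, the transcription factor gene NAC032 and the protochlorophyllide oxidoreductase gene PORA, were called in neither. Over these classes the median log2 fold change of 3 h Dex over control was -2.23 in EXPA1 OE and -0.22 in WT for the 55 genes, and 1.18 in EXPA1 OE (13 genes tested) and 2.45 in WT for the 14 genes.

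**Figure D2:**
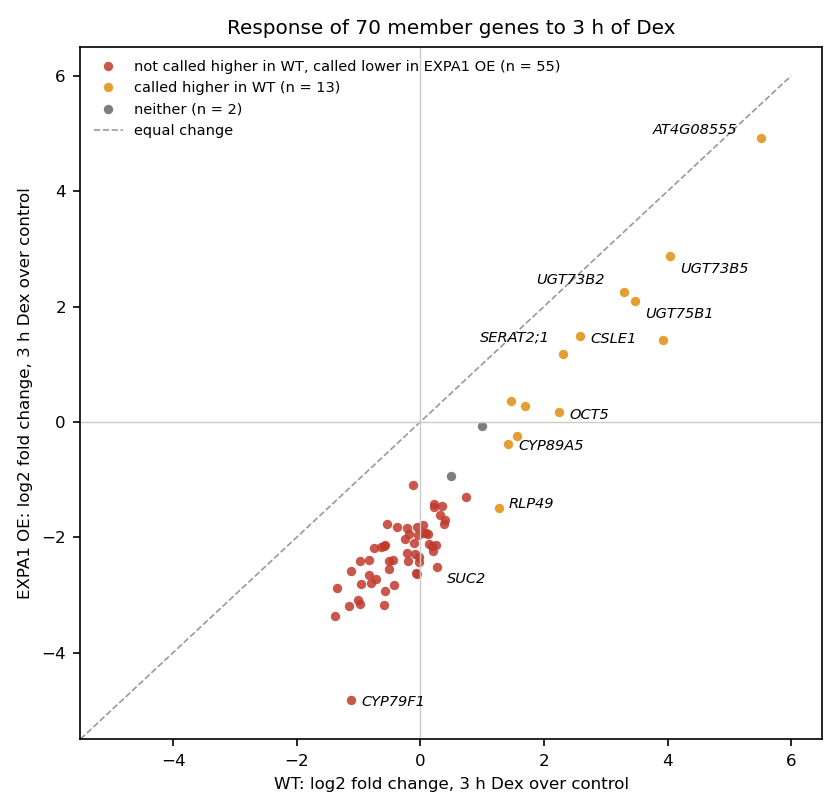
Fitted log2 fold change of 3 h Dex over control in EXPA1 OE (vertical axis) against that in WT (horizontal axis) for the 70 members tested in both; each point is a gene, coloured by its class, and the dashed line marks equal change. All points lie under the line, as the choice of members nearly fixes, with 55 genes low in EXPA1 OE and 13 genes to the right, raised in WT.

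In EXPA1 OE, 56 of 70 tested members were called lower and 7 higher at 3 h of Dex against control, where 9.06% and 9.05% of all genes tested were. These libraries include the low group of the rule, so the counts are a description. In WT, 14 of 71 members were called higher and 6 lower, where 3.57% and 5.38% of all genes tested were; 51 were called in neither direction. The rule set only a floor on the WT level at 3 h, but it also fixed the ratio of EXPA1 OE to that level. Members that rose in WT were therefore easier to admit. AT1G71520, AT5G16960, GSTU2 and AT4G08555 were under 2 CPM in all WT controls, so they met the floor only through their rise. Nothing is therefore read from the 14 against 3.57% of all genes tested. The median log2 fold change in WT was -0.05 over the members and 0.02 over all genes tested. The rule used the WT libraries at 3 h and without Dex. The WT fold changes and adjusted p given below for any single member therefore describe chosen genes.

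**Figure D3:**
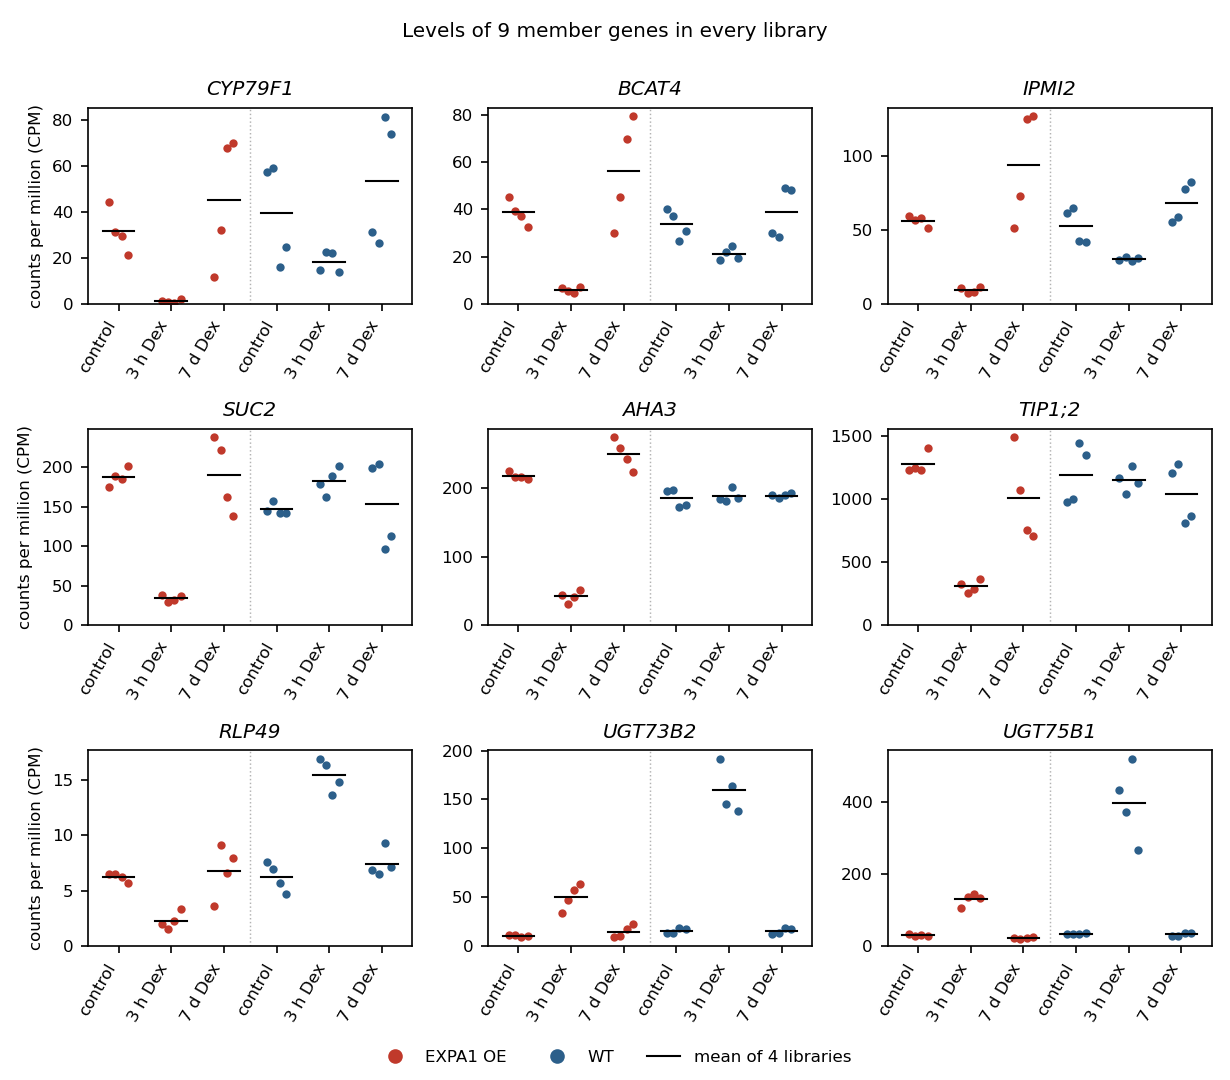
CPM (vertical axes, from 0) of 9 members in all 24 libraries, by genotype and treatment; points are libraries and bars the mean of 4. CYP79F1, BCAT4, IPMI2, SUC2, AHA3 and TIP1;2 fall below their own control in EXPA1 OE at 3 h, while UGT73B2 and UGT75B1 rise in both genotypes and RLP49 rises in WT and is low in EXPA1 OE.

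Aliphatic glucosinolate synthesis gave 5 members from a list of 26 genes: BCAT4 and IPMI2 of methionine chain elongation, CYP79F1 of the core pathway, and FMO GS-OX1 and FMO GS-OX3 of side-chain oxidation. CYP79F1, which converts chain-elongated methionine to aldoximes, had the lowest ratio of all members (-3.53). Its levels were 1.19, 0.828, 0.474 and 2.03 CPM in EXPA1 OE at 3 h, against 14.6, 22.7, 22.1 and 13.9 CPM in WT, so EXPA1 OE held 6.17% of the mean WT level. Without Dex EXPA1 OE had 21.2 to 44.1 CPM and WT 16.2 to 59.0 CPM, and after 7 d EXPA1 OE had 11.6, 32.1, 67.8 and 69.8 CPM against 31.4, 26.5, 81.2 and 73.8 CPM in WT. The 3 h values of EXPA1 OE lay below all others, whereas those at 7 d overlapped WT and differed widely between replicates. Reads of CYP79F1 and its close paralog CYP79F2 may be split uncertainly by the counting.

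BCAT4, an aminotransferase that starts methionine chain elongation, was at 6.51, 5.58, 4.78 and 7.04 CPM in EXPA1 OE at 3 h, against 18.5, 21.8, 24.7 and 19.3 CPM in WT at 3 h. After 7 d BCAT4 was at 30.1 to 79.4 CPM in EXPA1 OE and 28.4 to 49.1 CPM in WT. Its 3 h levels in EXPA1 OE were again the lowest of all groups. IPMI2, a small subunit of isopropylmalate isomerase, held 30.3% of the mean WT level in EXPA1 OE at 3 h, with no overlap, and was at 51.3 to 127 CPM against 55.5 to 82.3 CPM at 7 d. FMO GS-OX3 was at 15.9% of the mean WT level in EXPA1 OE at 3 h, where WT had 8.73 to 9.31 CPM, and FMO GS-OX1 was at 1.48 to 2.32 CPM in EXPA1 OE against 6.69 to 7.76 CPM in WT, with no overlap in either.

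In WT the log2 fold changes of all 5 members at 3 h of Dex against control were below 0, and 1 was called. For CYP79F1 edgeR gave -1.12 ± 0.38 (log2 fold change ± standard error) with an adjusted p = 0.0469. IPMI2, at -0.83 ± 0.13 (adjusted p = 0.0012, edgeR), and BCAT4, at -0.72 ± 0.13 (adjusted p = 0.00227, edgeR), stayed under the fold threshold. FMO GS-OX3, at -0.98 ± 0.37 (adjusted p = 0.0637, edgeR), and FMO GS-OX1, at -0.22 ± 0.26 (adjusted p = 0.539, edgeR), did not pass the test. The CYP79F1 call did not survive leaving out WT control replicate 1 or 2 or any of the 4 WT libraries at 3 h (adjusted p = 0.0614 to 0.115), nor a replicate block (-0.99, adjusted p = 0.0681). Across the whole list of 26 genes, 17 of 25 tested were called lower and 0 higher between genotypes at 3 h (4.89% and 4.51% of all genes tested). The 17, and the median, include the 5 members, which the rule chose on this contrast. The median log2 fold change was -1.46, against 0.02 over all genes tested. At 7 d 0 were lower and 2 higher (median 0.28), where 1.65% and 2.22% of all genes tested were. Of the genes of the list that are not members, 5 passed the limit at 3 h and missed that at 7 d, among them MYB29 and the following: CYP83A1, which acts after CYP79F1, had ratios of -2.67 and 0.72 at 3 h and 7 d, and MAM1, a chain elongation synthase, -2.20 and 0.75. The regulator gene MYB28 was at -1.37 and 0.42, and MYB29 at -2.04 and -0.80.

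**Figure D4:**
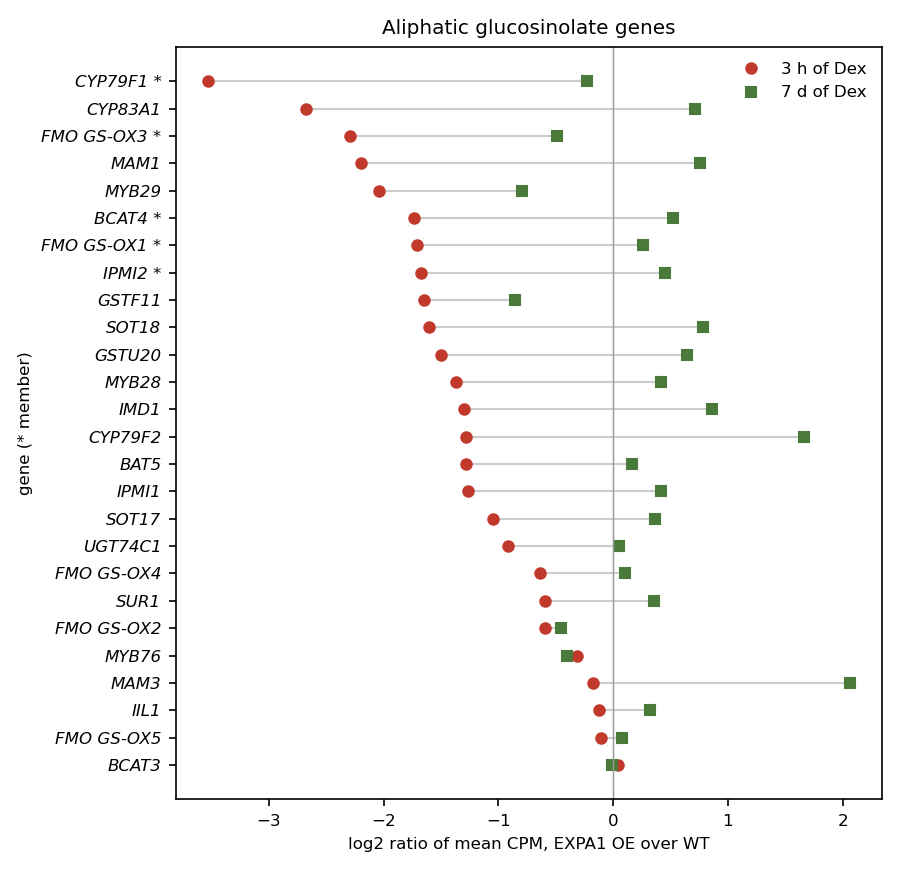
Log2 ratio of mean CPM, EXPA1 OE over WT (horizontal axis), of the 26 genes of the aliphatic glucosinolate list (vertical axis, members starred) at 3 h (circles) and 7 d (squares) of Dex. CYP79F1 stands lowest at -3.53 at 3 h and at -0.23 at 7 d, and 2 genes of the list that are not members, CYP79F2 and MAM3, stand above 1.5 at 7 d.

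Phloem loading gave SUC2, the sucrose-proton symporter of companion cells, and AHA3, the plasma membrane proton pump of the same cells. SUC2 was at 37.9, 28.9, 32.1 and 36.8 CPM in EXPA1 OE at 3 h, against 178, 162, 188 and 202 CPM in WT at 3 h, 18.6% of the mean WT level. Uninduced EXPA1 OE stood at 175 to 202 CPM and WT at 142 to 158 CPM. At 7 d EXPA1 OE had 238, 222, 163 and 138 CPM and WT 200, 204, 96.6 and 112 CPM. The ranges overlapped, and replicates 1 and 2 were above replicates 3 and 4 in both genotypes. At each replicate number EXPA1 OE was above WT, though no label pairs the replicates. SUC2 changed in WT by 0.27 ± 0.06 at 3 h (adjusted p = 0.0102), under the fold threshold.

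AHA3 was at 44.1, 30.9, 40.7 and 51.8 CPM in EXPA1 OE at 3 h, against 184, 181, 202 and 186 CPM in WT, 22.2% of the mean. At 7 d AHA3 was at 224 to 274 CPM in EXPA1 OE and 185 to 193 CPM in WT, higher but within the limit set by the rule. AHA3 gave -0.03 ± 0.06 in WT at 3 h (adjusted p = 0.746). Of 17 phloem genes listed, 7 of 16 tested were called lower and 0 higher between genotypes at 3 h, with a median log2 fold change of -0.68. Of all genes tested 4.89% and 4.51% were. The 7 include SUC2 and AHA3, which the rule chose on this contrast. At 7 d 0 of 17 were lower and 3 higher, with a median of 0.53, where 1.65% and 2.22% of all genes tested were. Not all genes of the list were low at 3 h: APL, a phloem regulator gene, had a ratio of -0.01 and PP2-A1, a phloem lectin gene, -0.08, both chosen after their values were seen. The sucrose exporter gene SWEET11 (-2.13 at 3 h) was left out because its ratio was 1.43 at 7 d. In bulk shoots fewer cells of a type and less RNA per cell cannot be told apart.

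The membrane of the vacuole gave the aquaporin genes TIP1;2 and TIP1;1. TIP1;2 had the highest level of all members, with 325, 254, 287 and 363 CPM in EXPA1 OE at 3 h against 1167, 1038, 1264 and 1131 CPM in WT. Per kb of exon it also led in WT (958 CPM per kb), before GER1 (768 CPM per kb). TIP1;1 was at 52.0 to 72.9 CPM in EXPA1 OE and 222 to 233 CPM in WT at 3 h. In WT at 3 h TIP1;2 gave -0.11 ± 0.16 (adjusted p = 0.625) and TIP1;1 -0.97 ± 0.09 (adjusted p = 9.98e-05), just under the fold threshold. Of 8 tested tonoplast aquaporin genes, 3 were called lower and 0 higher between genotypes at 3 h (4.89% and 4.51% of all genes tested). The 3 include TIP1;2 and TIP1;1, which the rule chose on this contrast. The related TIP2-1 had a ratio of -0.85.

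Several members encode secreted or vacuolar enzymes. GER1 was at 183, 168, 182 and 220 CPM in EXPA1 OE at 3 h against 644, 650, 793 and 772 CPM in WT, and PRXR1, a peroxidase gene, at 98.9, 61.9, 75.8 and 83.8 CPM against 340, 343, 317 and 335 CPM. RNS2, which degrades RNA in the vacuole, was at 7.42, 7.42, 9.11 and 11.9 CPM in EXPA1 OE against 34.0, 36.1, 36.4 and 35.9 CPM in WT. In WT none of these 3 genes passed the test at 3 h against control: GER1 gave 0.05 ± 0.19, PRXR1 -0.09 ± 0.09 and RNS2 -0.04 ± 0.06 (adjusted p = 0.871, 0.499 and 0.633, edgeR).

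At 7 d RNS2 averaged 28.5 ± 1.02 CPM in EXPA1 OE and 36.7 ± 1.44 CPM in WT (SD, n = 4 each), a lower mean within the limit of the rule. In all, 51 of the 71 members had a ratio below 0 at 7 d and 44 a ratio below 0 without Dex. The shares over all expressed genes are not given, so nothing is read from these counts. The rule allows about 1.5-fold at 7 d, so recovery under it need not be return to the WT level. The members include the carboxypeptidase-like genes SCPL26 and SCPL49, the subtilase genes AT3G14067 and SBT5.2, the aspartyl protease gene AT3G54400, the α-galactosidase gene AGAL1, the β-glucosidase gene BGLU33 and the glycosyl hydrolase genes AT1G78060 and AT5G04885. AT3G14067 was at 27.4 to 37.1 CPM in EXPA1 OE and 111 to 139 CPM in WT at 3 h, and it also fell in WT itself (log2 fold change -1.35, standard error 0.09, adjusted p = 1.66e-05).

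AT1G78060 was at 3.47 to 6.05 CPM in EXPA1 OE and 28.1 to 30.3 CPM in WT at 3 h, 17.1% of the mean WT level. AT3G53190, a pectin lyase-like gene, was at 6.41 to 8.84 CPM against 38.2 to 41.0 CPM, and the TRAF-like gene AT3G28220 at 2.23 to 5.86 CPM against 19.4 to 26.1 CPM. The lectin gene AT1G52000 was at 1.99 to 4.72 CPM against 14.3 to 19.6 CPM. None of these pairs of groups overlapped. NAI2, which is needed to form ER bodies, compartments that store β-glucosidases in the Brassicaceae, was at 38.5 to 56.9 CPM in EXPA1 OE and 159 to 177 CPM in WT at 3 h, and at 197 to 221 CPM and 205 to 270 CPM at 7 d. Of 27 genes of ER bodies and the myrosinase system, 16 were called lower and 1 higher between genotypes at 3 h. Their median log2 fold change was -1.21, and 4.89% and 4.51% of all genes tested were so called. The 16 include NAI2, which the rule chose on this contrast. At 7 d 2 were lower (median -0.46) and without Dex 4 (median -0.46), where 1.65% and 2.94% of all genes tested were.

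Members of other kinds included CYP78A5, a cytochrome P450 gene known for prolonging organ growth, with 2.57 to 3.44 CPM in EXPA1 OE and 15.4 to 20.8 CPM in WT at 3 h, the amino acid permease gene AAP1, with 10.6 to 17.3 CPM against 39.8 to 50.0 CPM, and the thaumatin-like gene ATLP-1, with 7.67 to 10.2 CPM against 31.3 to 34.4 CPM. CYP78A5 stood at 14.4 to 20.7 CPM in EXPA1 OE and 12.9 to 21.2 CPM in WT at 7 d.

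The members raised by Dex in WT had another make-up. Of 13 with a protein model, 3 (23.1%) had an N-terminal segment, near the share in expressed genes, against 37 of 55 (67.3%) in the class that fell in EXPA1 OE. They include the glucosyltransferase genes UGT75B1, UGT73B1, UGT73B2 and UGT73B5 and the glutathione transferase gene GSTU2, whose families conjugate stress metabolites and foreign compounds, SERAT2;1, a serine acetyltransferase of cysteine synthesis, CSLE1, a cellulose synthase-like gene, and the transporter gene OCT5. The split into classes was made from the measured calls and has no test of its own. The class raised in WT holds genes that met the floor of the rule only through their rise. As for all members, the rule used the WT libraries at 3 h and without Dex, so the fold changes and adjusted p that follow describe chosen genes.

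UGT75B1 was at 107, 138, 146 and 135 CPM in EXPA1 OE at 3 h against 433, 374, 520 and 268 CPM in WT at 3 h, where the uninduced levels were 27.7 to 32.9 CPM in EXPA1 OE and 33.5 to 35.7 CPM in WT. Both genotypes thus stood above their controls, UGT75B1 in EXPA1 OE at 33.0% of the mean WT level. In WT it rose by 3.48 ± 0.20 (adjusted p = 8.38e-06). UGT73B2 was at 33.9, 47.3, 57.6 and 63.4 CPM in EXPA1 OE and 191, 145, 163 and 138 CPM in WT at 3 h, against 9.08 to 11.3 CPM and 13.1 to 18.7 CPM without Dex (in WT 3.30 ± 0.19, adjusted p = 7.87e-06). It lies next to UGT73B1 on chromosome 4 (16345281 to 16349982 of TAIR10 span both), the only members that neighbour each other with at most 1 gene between, and reads of these similar copies may be split uncertainly.

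CSLE1 was at 48.2 to 77.5 CPM in EXPA1 OE and 151 to 213 CPM in WT at 3 h (in WT 2.59 ± 0.14, adjusted p = 7.87e-06, edgeR). UGT73B5 was at 13.3 to 26.6 CPM and 45.6 to 79.8 CPM (4.04, 0.23, adjusted p = 8.00e-06, edgeR). AT4G08555 was at 8.17 to 16.7 CPM and 22.7 to 53.3 CPM (in WT 5.52 ± 0.32). Its WT controls were at 0.718 to 1.03 CPM, so it met the floor of the rule only through its rise, and no p is given. SERAT2;1 was at 27.6 to 45.6 CPM in EXPA1 OE and 122 to 153 CPM in WT (2.31, 0.14, adjusted p = 9.31e-06). AT1G71520, annotated as a DNA-binding protein, was at 0.121 to 1.30 CPM in EXPA1 OE and 1.73 to 4.63 CPM in WT at 3 h, and at or under 0.0832 CPM in all control libraries, too few counts for a fold.

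OCT5 and CYP89A5 were raised in WT and not called in EXPA1 OE. OCT5 was at 7.58, 9.85, 12.3 and 12.4 CPM in EXPA1 OE at 3 h against 56.0, 47.3, 56.0 and 40.2 CPM in WT at 3 h and 8.85 to 9.36 CPM in uninduced EXPA1 OE. In WT OCT5 rose by 2.24 ± 0.14 (adjusted p = 1.33e-05). CYP89A5 was at 17.8 to 22.8 CPM in EXPA1 OE and 88.5 to 123 CPM in WT at 3 h, and AT5G61820, annotated as stress up-regulated Nod 19, at 65.4 to 92.9 CPM and 200 to 365 CPM. RLP49 (AT4G13900), annotated as a transcribed pseudogene, was the only member called in opposite directions: it was at 1.98, 1.56, 2.29 and 3.32 CPM in EXPA1 OE and 16.9, 16.4, 13.7 and 14.8 CPM in WT at 3 h, while its WT controls were at 4.69 to 7.61 CPM. Its log2 fold change against control was -1.49 in EXPA1 OE and 1.27 in WT.

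**Figure D5:**
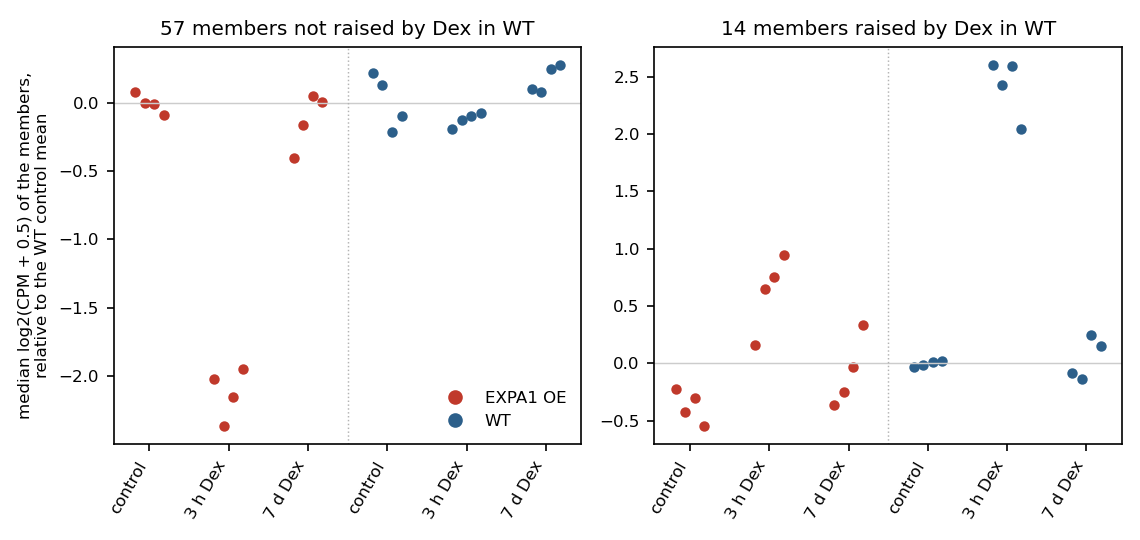
Median log2(CPM + 0.5) of the members in each library relative to the mean of the WT controls (vertical axis), for the 57 members not called higher by Dex in WT (left) and the 14 that were (right). The 57 genes stand at -2.37 to -1.95 in EXPA1 OE at 3 h and between -0.40 and 0.28 in all other libraries, and the 14 genes reach 0.16 to 0.95 in EXPA1 OE and 2.05 to 2.60 in WT at 3 h.

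By library, the median of the 57 members not raised in WT was -2.02, -2.37, -2.15 and -1.95 in EXPA1 OE at 3 h and -0.19, -0.12, -0.10 and -0.08 in WT at 3 h, on the log2 scale relative to WT controls. At 7 d it was -0.40, -0.16, 0.05 and 0.01 in EXPA1 OE and 0.10, 0.08, 0.25 and 0.28 in WT. EXPA1 OE thus stood apart at 3 h in all 4 libraries, and EXPA1 OE replicate 1 was the lowest at 7 d. The highest library exceeded the lowest by more than 2-fold for 27 members (38.0%) in EXPA1 OE at 7 d and for 12 (16.9%) in WT at 7 d, against 9.12% and 5.68% of expressed genes. In WT controls it did so for 11 (15.5%, against 5.04%) and in EXPA1 OE at 3 h for 8 (11.3%, against 1.71%). The numbers were 4 in WT at 3 h (5.63%, against 1.54%) and 1 in uninduced EXPA1 OE (1.41%, against 0.803%). Group means, on which membership rests, thus hide a spread between replicates, most of all in EXPA1 OE at 7 d.

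After 7 d of Dex no member was called against the uninduced seedlings of the same genotype. The rule used all of these libraries in its ratios at 7 d and without Dex. It thereby tied the change in EXPA1 OE to that in WT, so these counts and adjusted p are descriptions. In EXPA1 OE 0 of 70 tested members were called higher and 0 lower (4.8% and 1.44% of all genes tested) by edgeR, and 0 by DESeq2, while 26 had an unadjusted p under 0.05, where 42.2% of all genes tested did, and 16 an adjusted p under 0.05 with a fold under 2. The smallest were ENODL13 (log2 fold change -0.59, adjusted p = 0.00129), RNS2 (-0.30, adjusted p = 0.00178), ATLP-1 (-0.39, adjusted p = 0.00276) and UGT75B1 (-0.45, adjusted p = 0.00366). Without EXPA1 OE replicate 1 at 7 d, 4 members were called higher: FMO GS-OX1 (1.17), CB5-C (1.00), ABCC10 (1.43) and AT4G08555 (1.01). In WT 0 of 70 were called higher and 0 lower (0.00482% and 0.0% of all genes tested), 0 by DESeq2, and 5 had an unadjusted p under 0.05, where 7.25% of all genes tested did; the smallest adjusted p was 0.331, for TIP1;1.

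Promoter letters were searched on both strands in the 250 bases before and 50 bases after each gene start of the files' annotation, and bases around a match are shown for 6 members because they carry the letters whose share in the members, or in the members raised in WT, stood furthest above that of expressed genes. The G-box CACGTG, bound by bZIP and bHLH factors, was in 16 of 71 promoters (22.5%), against 9.86% of 16478 expressed genes and 7.21% of 33322 promoters. ACGTCA, part of TGACG elements, was searched after the data were seen and was in 6 of the 14 genes raised in WT (42.9%) and 6 of the other 57 (10.5%), against 10.1% of expressed genes. TGACG itself, also added after the data were seen, was in 6 of the 14 (42.9%) and in 19 of all 71 members (26.8%), against 26.9% of expressed genes. Capitals mark the motif as read on the strand of the gene.
SUC2, CACGTG (chr1:8033171-8033220, minus strand): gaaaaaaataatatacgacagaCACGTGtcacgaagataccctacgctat
FMO GS-OX3, CACGTG (chr1:23159741-23159790, plus strand): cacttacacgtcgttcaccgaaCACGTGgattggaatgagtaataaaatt
NAI2, CACGTG (chr3:5402712-5402761, minus strand): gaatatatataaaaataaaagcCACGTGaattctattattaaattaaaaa
UGT73B5, CACGTG (chr2:6758567-6758616, plus strand): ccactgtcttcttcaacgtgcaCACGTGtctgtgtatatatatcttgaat
UGT73B2, ACGTCA (chr4:16347195-16347244, minus strand): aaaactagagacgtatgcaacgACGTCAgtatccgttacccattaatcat
UGT75B1, ACGTCA (chr1:1647254-1647303, minus strand): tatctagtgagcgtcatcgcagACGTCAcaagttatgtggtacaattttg

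The other letters were nearer to their share in expressed genes: the evening element AAATATCT in 5 of 71 (7.04%) against 889 of 16478, TTGACC in 9.86% against 14.1%, TTGACT in 18.3% against 20.7%, GCCGCC in 2.82% against 4.07% and GAAGAAG in 23.9% against 26.5%. The ER stress elements CCAAT followed by 10 bases of any kind and CACG, and TGACGTGG, which share letters with the G-box, were in 0 of 71 promoters each, against 1.41% and 2.31%. A match is a description of these windows only.

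Genes of the unfolded protein response were high in EXPA1 OE at 3 h, when the members were low, and some were still high at 7 d. Their 14 listed mRNAs summed to 9583 to 11054 CPM in EXPA1 OE at 3 h and 919 to 1035 CPM in WT, and to 1606 to 3467 CPM in EXPA1 OE and 928 to 1123 CPM in WT at 7 d. The ratios at 3 h were 3.46 for BIP1 and 3.42 for the regulator gene BZIP60, and -0.01 and 0.09 for IRE1A and IRE1B, the ER stress sensors. Of 14 genes, 11 were called higher and 0 lower between genotypes at 3 h, and 8 and 0 at 7 d. Of all genes tested 4.51% and 2.22% were called higher at these times. In EXPA1 OE at 7 d against its control 10 were higher and 0 lower (4.8% and 1.44% of all genes tested). There 0 members were called, which the rule limits. The part of the unfolded protein response genes in the result was not tested. Guard cell markers summed to 43.9 to 58.1 CPM in EXPA1 OE and 45.8 to 54.7 CPM in WT at 3 h, photosynthesis markers to 31106 to 36570 CPM and 41213 to 45334 CPM, root hair markers to 17.2 to 32.7 CPM and 7.95 to 15.1 CPM, and seed maturation markers to 2.71 to 28.5 CPM and 23.5 to 149 CPM, with no gene of these lists at 0 in either group at 3 h. The seed maturation markers differed without Dex too, at 4.38 to 24.3 CPM in EXPA1 OE and 151 to 304 CPM in WT. Of 12 tested 11 were called lower (2.94% of all genes tested). The root hair markers went the other way without Dex, at 4.35 to 8.65 CPM in EXPA1 OE and 10.9 to 17.2 CPM in WT. There 4 of 8 were called lower, against 3 called higher at 3 h (2.94% and 4.51% of all genes tested). Their part was not tested either.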

How the data were processed

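Shoot mRNA was measured in 24 libraries, 4 in each of 6 groups. The processing notes name Trimmomatic, STAR, RSEM and featureCounts, and the build TAIR10. The deposited RSEM table holds expected counts that the authors did not normalize. The deposited exon counts are whole counts from featureCounts. The notes give no tool versions. Estimated counts were rounded (3.82% were not whole) and tested in edgeR 4.0.16 (R 4.3.3): its filter on low counts, TMM scaling and the quasi-likelihood test on the 8 libraries of a comparison, Benjamini-Hochberg adjusted over all genes tested. A call needed a fold of 2 or more besides an adjusted p below 0.05. CPM divides by the column sum. The labels put treatment in the genotype field, so groups come from titles. Replicates are separate samples by the labels.

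The members and lists were chosen with earlier results of these data known. Named are the 12 largest falls, all members on a list, the 8 highest in WT at 3 h, the 4 smallest adjusted p in each Dex comparison of WT and at 7 d in EXPA1 OE, and genes at the limit; others named were chosen after their values were seen. Same-numbered replicates deviated together only at 7 d between genotypes (correlations 0.25 to 0.66), from the data, as no label pairs them. Alternatives were exon counts, DESeq2 1.42.0, its size factors, no filter, a replicate block, each library left out, and other limits of the rule. On simulated counts the test recovered 191 of 200 changed genes at 3 h between genotypes, with 2.05% false calls. At 7 d between genotypes it recovered 175 of 200, the fewest of all comparisons, with 5.41% false calls. Coordinates are those of the exon table. RefSeq models gave 27192 proteins. Gene starts were those of the files, since promoter tables were not used here. Lists of indole glucosinolate, lipid transfer, fasciclin-like, proton pump, flavonoid, trichome, sulfate and clock genes are given in the closing section.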

Additional observations from a re-analysis of the deposited data

Results flagged for a closer look

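In 4 of 198 group and gene combinations 1 library stood apart from the other 3, where chance gives about 1 in 20. TIP1;2 was at 1407 CPM in uninduced EXPA1 OE replicate 4, against 1227 to 1247 CPM in the others. CYP78A5 was at 2.57 CPM in EXPA1 OE replicate 2 at 3 h, the library rich in a few abundant RNAs, against 3.34 to 3.44 CPM. SUC2 was at 158 CPM in WT control replicate 2, against 142 to 145 CPM, and AT3G28220 at 26.1 CPM in WT replicate 3 at 3 h, against 19.4 to 19.6 CPM. RLP49 moved in opposite directions under 3 h of Dex, with a log2 fold change of -1.49 in EXPA1 OE and 1.27 in WT; the difference was not tested, since the rule chose it.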

How the results depend on the processing

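The limit on the ratio decides the number of members: 361 genes passed at -1 and 15 at -2, against 71. Leaving out 1 library at a time gave 58 to 85. With a replicate block 0 members were called lower without Dex in place of 1, and leaving out libraries gave 0 to 2 (PORA, at -1.23, was added without WT control replicate 2); the block, which pairs libraries by the data only at 7 d between genotypes, lost 2 calls among named genes, CYP79F1 and AT3G45680 in WT at 3 h, and changed no other call among the members. With exon counts 1 member (AT5G16960) was called lower in EXPA1 OE at 7 d. Leaving out libraries gave 14 to 15 members called higher and 4 to 7 lower in WT at 3 h, 55 to 57 lower and 7 to 8 higher in EXPA1 OE at 3 h, and 0 to 4 higher in EXPA1 OE at 7 d. No call reversed. The cause of these changes was not tested. Depth limits AT1G71520, whose control libraries held too few counts for a fold.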

Other observations

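Lists without a member, or in which members were few, moved as follows between genotypes at 3 h, where 4.89% of all genes tested were called lower and 4.51% higher. Of 13 tested indole glucosinolate genes 3 were called lower and 2 higher, of 9 lipid transfer protein genes 5 and 1, of 15 fasciclin-like arabinogalactan protein genes 3 and 0, of 10 trichome regulator genes 5 and 0, and of 17 flavonoid and anthocyanin genes 8 and 0. The flavonoid list was low without Dex too, with 12 of 17 called lower (median log2 fold change -1.39), against 2.94% of all genes tested. By 3 h of Dex in WT 16 of 18 were called lower, against 5.38% of all genes tested. Of the trichome list 0 of 10 were called lower without Dex and 8 at 7 d (2.94% and 1.65% of all genes tested). Of 9 proton pump genes 3 were lower, among them the member AHA3, chosen by the rule on this contrast. Also among them were AHA11, with a ratio of -1.48 at 3 h and 0.01 at 7 d, and AHA1 with -0.97. Of 16 sulfate genes 3 were lower and 3 higher. The 3 lower include SERAT2;1, a member that the rule chose on this contrast. SULTR2;1, a sulfate transporter gene of vascular tissue, had -2.32 at 3 h but -0.91 at 7 d.

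Of 11 clock genes 5 were called higher by 3 h of Dex in EXPA1 OE and 5 in WT (9.05% and 3.57% of all genes tested). Between genotypes at 3 h 1 was lower (4.89% of all genes tested). The rhythmic hour of the groups was not given, and its part in the members raised in WT was not tested.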
